A study of Homo sapiens and Rattus norvegicus with 26 samples.

Results

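The samples compared here were the high-shear cultures of primary rat brain microvascular endothelial cells (rBMECs) and of hBMEC-like cells, a barrier-forming model made from human induced pluripotent stem cells (iPSCs), and they were taken by their labels: the 4 rBMEC and 3 hBMEC-like libraries at 12 dyne/cm2, which are 7 of the 26 libraries in the series. Both models were grown in perfused chips and kept at this shear for 72 h before lysis. rBMECs were taken from brain microvessels of male Sprague–Dawley rats, plated directly into the chips, selected with puromycin, which brain endothelial cells survive by efflux, and kept in medium with serum, heparin and FGF2. hBMEC-like cells were differentiated from 1 line, IMR90-4, with a GSK3 inhibitor followed by retinoic acid and FGF2. Retinoic acid and FGF2 stayed in the medium during a first day of minimal flow in the chip, and both were left out when shear was applied. The hBMEC-like replicates were separate differentiations. The 4 rBMEC libraries were labelled as separate replicates, but the study describes 3 isolations, brains were pooled where several were needed, and which libraries share an isolation is not known here, so p-values may be too small. Species, donor, differentiation and medium changed together between the models and cannot be told apart. For that reason the levels in 6 high-shear libraries of hECs and hCECs are given as well. These are iPSC-derived endothelial cells from the same IMR90-4 line, without and with CHIR99021, a GSK3 inhibitor that activates Wnt signaling, and their progenitors had been sorted for CD34 or CD31.

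The blood–brain barrier (BBB) is formed by endothelial cells that are joined by tight junctions, carry nutrients by dedicated solute carriers, expel drugs by ATP-driven pumps and take up little by vesicles. Endothelial identity is kept by transcription factors of the ETS, SOX and GATA families, and brain identity is added by Wnt/β-catenin signaling. Epithelial barriers use the same classes of junction and carrier, but with keratin filaments, E-cadherin, desmosomes and another set of claudins. hBMEC-like cells have been used as a BBB model for their tight barrier, and their epithelial gene expression is known. The comparison asks what brain endothelium has at the level of transcripts that the epithelial-type barrier model lacks, and the reverse. Brain endothelium is represented here by cultured rBMECs. The paper reports that such cells dedifferentiate in culture and that shear by itself rescued little of this loss. A BBB gene that was low in rBMECs is therefore not shown to be low in brain vessels.

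Genes were matched by symbol, and 16513 were shared. Levels are given in TPM, the length-scaled unit of transcript abundance, over the shared genes and with the gene length of each species. The 4 rBMEC libraries held 25727387 to 32385661 counts and the 3 hBMEC-like libraries 26297516 to 38330109. Of the 13109 genes tested, 3721 (28.4%) were at least 2-fold higher in rBMECs and 4412 (33.7%) at least 2-fold lower at an adjusted p under 0.05 (edgeR's quasi-likelihood test with Benjamini–Hochberg adjustment), together 62.0%. At over 10-fold, 1376 were higher and 2193 lower. An adjusted p under 0.05 alone was reached by 10720 genes (81.8%). Over all genes tested the median log2 fold change was -0.14. With libraries scaled by their totals alone the median was -0.31 and the calls were 3391 higher and 4748 lower, and with scaling by 10 housekeeping genes, of which 5 were higher in rBMECs, the median was -1.05 and the calls were 2331 higher and 6603 lower. List counts below are to be read against these shares.

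A total of 462 genes (3.52%) were called, had a mean of at least 10 TPM in rBMECs and were under 1 TPM in each hBMEC-like library, and 525 (4.00%) showed the reverse. Some of these genes were at 0 in every library of a species. Of the 462 genes, 81 had 0 counts in all 18 human libraries of the series, and they included genes that every cell uses, such as *EIF4A1*, a helicase of translation initiation, with 949, 514, 533 and 624 TPM in rBMECs. Of the 81 genes, 32 lay between 28 and 34 Mb of human chromosome 6, where 133 shared genes lie. *RPS18*, a ribosomal protein gene of that region, had 1674, 1910.3, 1950.2 and 1555 TPM in rBMECs, against 0, 0 and 0.156 TPM in hBMEC-like cells. *ALDOA*, a glycolytic enzyme, was at 2012, 1215, 1176 and 1433 TPM in rBMECs, against 7.75, 6.83 and 6.98 TPM in hBMEC-like cells, and at 6.25 and 8.02 TPM in hECs and hCECs. In the reverse direction, 93 of the 525 genes had 0 counts in all 8 rat libraries. For a gene that is low in every library of a species, absence of the transcript and loss of its reads in counting cannot be told apart here. Without the genes that were at 0 throughout a species, 3609 were higher and 4006 lower. The other human models show which genes the human tables do count: 92 of the 462 genes averaged at least 10 TPM in hECs or hCECs, and 294 were under 1 TPM in both.

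rBMEC replicate 1 stood apart from the other 3. Its log2 levels correlated with theirs across genes at 0.967 to 0.977, whereas the other rBMEC pairs were at 0.989 to 0.995 and the hBMEC-like pairs at 0.993 to 0.996. Between models the correlations were 0.567 to 0.610. Those of rBMEC replicate 1 with hBMEC-like libraries were the highest, at 0.603 to 0.610, and those of rBMEC replicates 2 to 4 reached 0.575. In this replicate the sum over the pan-endothelial genes was 14790 TPM, against 26271 to 29160 TPM in the other rBMEC libraries, and the sum over the interstitial matrix genes was 26415 TPM, against 12131 to 12952 TPM. Without it 3718 genes were higher and 4551 lower, beside 3721 and 4412 with it. Where leaving it out changed a call or moved a printed fold change by over 1.5-fold, the value without it is given.

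**Figure D1:**
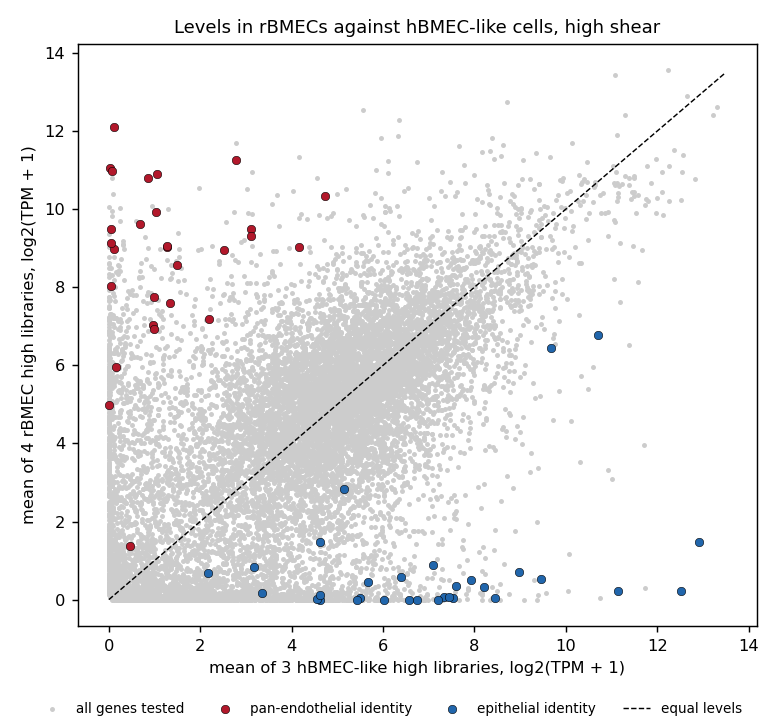
Mean level of each gene in 4 rBMEC high-shear libraries (vertical axis) against 3 hBMEC-like high-shear libraries (horizontal axis), both as log2(TPM + 1). Gray points are all genes tested, colored points are the pan-endothelial and epithelial lists, and the dashed line marks equal levels. The 27 called pan-endothelial genes lie above the line and the 31 tested epithelial genes below it.

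rBMECs carried the genes that define endothelium, and their levels in hBMEC-like cells were far lower. Of the 28 tested genes of a pan-endothelial list, 27 were higher in rBMECs, 0 were lower, and the median log2 fold change was 8.62. The list summed to 14790 to 29160 TPM in rBMECs, against 78.9 to 91.8 TPM in hBMEC-like cells, and in hECs and hCECs it summed to 28776 to 33323 TPM. hECs and hCECs, tested against the same hBMEC-like libraries, were higher for 29 of 29 genes of the list with a median of 9.06, beside 2455 higher and 3187 lower of 12942 genes (43.6% called in either direction) in that comparison. Of the genes tested in rBMECs, 11 were present in rBMECs and under 1 TPM in each hBMEC-like library. *CDH5*, which encodes VE-cadherin of endothelial adherens junctions (chromosome 16, 66366691 to 66404784 in GRCh38), had 1136, 1277, 1278 and 1501 TPM in rBMECs, against 27.1, 26.4 and 23.4 TPM in hBMEC-like cells, a log2 difference of 5.66 ± 0.18 (SE, adjusted p = 2.0e-07). It was the gene of the list with the highest level in hBMEC-like cells, and hECs and hCECs had 2571 and 2357 TPM. *PECAM1*, an adhesion molecule at endothelial contacts and part of a flow-sensing complex, had 1033, 2273, 2469.5 and 2335 TPM in rBMECs, against 0.0994, 0.0276 and 0 TPM in hBMEC-like cells. *TIE1*, a receptor tyrosine kinase of endothelium, was at 1033, 2129, 2361 and 2160.4 TPM in rBMECs, against 1.26, 0.830 and 1.18 TPM in hBMEC-like cells, a log2 difference of 10.78 ± 0.47 (SE, adjusted p = 5.6e-07). All 4 rBMEC libraries were far above all 3 hBMEC-like libraries for each of these genes.

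*VWF*, which encodes the von Willebrand factor stored for release into blood, had 1215, 2396, 1620.4 and 1939 TPM in rBMECs, against 0.800, 0.724 and 0.889 TPM in hBMEC-like cells. In hECs and hCECs it averaged 21.5 and 67.6 TPM. *ENG*, a co-receptor for BMP9 and TGF-β, had 3031, 2347, 1542 and 2805 TPM in rBMECs, against 7.29, 6.35 and 4.01 TPM in hBMEC-like cells. Every rBMEC library was above every hBMEC-like library for both. The sialomucin *CD34* had 1181, 2296, 2336 and 2675 TPM in rBMECs, against 0, 0 and 0.0607 TPM in hBMEC-like cells. *EMCN*, a sialomucin of capillaries and veins, had 309, 919.7, 938 and 727 TPM in rBMECs, against 0.0394, 0.0329 and 0.0368 TPM in hBMEC-like cells. *KDR*, the main VEGF receptor, was at 118, 159.8, 139 and 164 TPM in rBMECs, against 5.08, 3.76 and 1.86 TPM in hBMEC-like cells, a log2 difference of 5.35 ± 0.37 (SE, adjusted p = 4.7e-06). hECs and hCECs, whose medium contained VEGF, had 2067 and 2625 TPM, over 10 times the level of rBMECs. *PLVAP*, which forms the diaphragms of fenestrae and is low in mature brain endothelium, had 35.4, 17, 48.5 and 22 TPM in rBMECs and 0 counts in each hBMEC-like library, so the rBMEC mean was at least 698-fold higher than the level of 3 counts over the group. Its mean was 10124 TPM in hECs and 7919 TPM in hCECs.

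The transcription factors of endothelium showed the same split. Of 29 tested, 24 were higher in rBMECs and 3 lower, with a median of 3.99. *ERG*, the ETS factor that maintains endothelial identity, had 280.1, 350.3, 433 and 385 TPM in rBMECs, against 0, 0 and 0.0777 TPM in hBMEC-like cells. *FLI1*, a related ETS factor, had 21, 69.4, 57.2 and 65.2 TPM in rBMECs, against 1.98, 1.63 and 0.769 TPM in hBMEC-like cells, a log2 difference of 5.20 ± 0.55 (SE, adjusted p = 4.8e-05). For both, rBMEC replicate 1 was the lowest rBMEC library and still above all hBMEC-like libraries. The SOX factors were separated as well, *SOX18* with 291, 1161, 1589 and 919.9 TPM in rBMECs, against 0, 0 and 0.138 TPM in hBMEC-like cells. *SOX17*, tied to arterial identity, had 197, 322, 325 and 336 TPM in rBMECs, against 0.935, 1.60 and 2.0 TPM in hBMEC-like cells. *KLF2*, induced by laminar flow, had 591, 1228, 1081 and 1175 TPM in rBMECs, against 1.66, 0.726 and 1.92 TPM in hBMEC-like cells, a log2 difference of 9.46 ± 0.50 (SE, adjusted p = 1.2e-06). *FOXQ1* and *FOXF2*, forkhead factors that mark brain endothelium, were higher in rBMECs. *FOXQ1* had 284, 188, 207 and 284 TPM in rBMECs, against 0.595, 0.344 and 0.353 TPM in hBMEC-like cells, a log2 difference of 9.14 ± 0.31 (SE, adjusted p = 2.2e-07). *FOXF2* had 153, 198, 201 and 215 TPM in rBMECs, against 0.597, 0.705 and 1.01 TPM in hBMEC-like cells, a log2 difference of 7.92 ± 0.24 (SE, adjusted p = 1.9e-07). Both averaged under 1 TPM in hECs and in hCECs. *TBX3* and *NR2F2* went the other way. *TBX3*, a T-box repressor, was at 9.79, 17.1, 13.6 and 15.6 TPM in rBMECs, against 329.6, 360.3 and 325 TPM in hBMEC-like cells, a log2 difference of -4.59 ± 0.20 (SE, adjusted p = 5.6e-07). *NR2F2*, the venous identity factor, was at 13.6, 24.1, 28.7 and 18.8 TPM in rBMECs, against 188, 193 and 180.3 TPM in hBMEC-like cells, a log2 difference of -3.13 ± 0.24 (SE, adjusted p = 7.7e-06).

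ETS factors bind GGAA cores, and the sequence upstream of endothelial genes was searched for AGGAAG or its reverse complement CTTCCT on either strand. The windows are the 250 bases upstream of RefSeq start sites in GRCh38.p14. Of the 30 pan-endothelial genes, 20 had a window, and 15 of their 23 windows (65.2%) held the motif, beside 10083 of 35116 windows (28.7%) over all genes. Of the 32 epithelial genes, 15 had a window, and 8 of 19 windows (42.1%) held it. The share was 13 of 31 windows (41.9%) for the endothelial transcription factors and 9 of 24 (37.5%) for the claudins, so not every endothelial list stood above the epithelial one. A match describes letters and not binding. The windows of 3 endothelial genes that were higher in rBMECs, each with the motif, and of *KRT8*, the keratin with the highest level in hBMEC-like cells, are shown 5′ to 3′ with the motif in capitals. They lie at chr1:43300732-43300981 (plus strand, *TIE1*), chr9:127854659-127854908 (minus strand, *ENG*), chr13:28495129-28495378 (minus strand, *FLT1*) and chr12:52926470-52926719 (minus strand, *KRT8*).
TIE1: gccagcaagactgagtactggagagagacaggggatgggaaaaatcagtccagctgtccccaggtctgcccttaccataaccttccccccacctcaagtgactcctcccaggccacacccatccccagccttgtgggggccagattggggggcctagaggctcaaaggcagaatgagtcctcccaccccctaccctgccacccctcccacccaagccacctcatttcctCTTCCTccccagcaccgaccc
ENG: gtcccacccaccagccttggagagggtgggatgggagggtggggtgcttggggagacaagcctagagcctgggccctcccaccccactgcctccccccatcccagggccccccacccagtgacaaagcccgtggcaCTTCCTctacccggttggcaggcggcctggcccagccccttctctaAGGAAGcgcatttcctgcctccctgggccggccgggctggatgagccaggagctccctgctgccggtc
FLT1: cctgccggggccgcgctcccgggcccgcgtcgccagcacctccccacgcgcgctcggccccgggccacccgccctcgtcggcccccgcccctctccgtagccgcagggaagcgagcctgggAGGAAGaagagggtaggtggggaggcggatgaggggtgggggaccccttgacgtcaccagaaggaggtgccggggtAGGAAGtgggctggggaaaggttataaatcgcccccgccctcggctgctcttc
KRT8: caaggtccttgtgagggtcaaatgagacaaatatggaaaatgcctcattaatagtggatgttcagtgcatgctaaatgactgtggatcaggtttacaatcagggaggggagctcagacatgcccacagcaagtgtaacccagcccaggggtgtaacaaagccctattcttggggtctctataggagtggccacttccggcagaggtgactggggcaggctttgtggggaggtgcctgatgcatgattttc
The first base of the motif lay 21 bases before the start site of *TIE1*, 114 and 68 before that of *ENG* and 129 and 53 before that of *FLT1*. *FLT1*, a decoy receptor for VEGF, had 137, 239, 233 and 248 TPM in rBMECs, against 0.676, 1.48 and 0.778 TPM in hBMEC-like cells, a log2 difference of 7.77 ± 0.43 (SE, adjusted p = 1.6e-06). The window of *KRT8* held 0 matches to these 6 letters, but it held the core GGAA or TTCC 2 times, beside 4 in *TIE1*, 3 in *ENG* and 4 in *FLT1*, so 0 matches does not show that it lacks an ETS site. That window lies at a start site inside the span of the gene, and no other start of *KRT8* is shown.

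hBMEC-like cells carried the epithelial program. All 31 tested genes of the epithelial list were lower in rBMECs, with a median of -10.28 (-10.27 with genes at 0 set to the bound of 3 counts), and the list summed to 136 to 419 TPM in rBMECs, against 19740 to 23623 TPM in hBMEC-like cells. In hECs and hCECs the sum was 126 to 350 TPM, and 31 of 31 genes were lower there than in hBMEC-like cells, with a median of -9.96. The keratins of simple epithelia were among the most abundant transcripts of hBMEC-like cells. *KRT8* (chromosome 12, 52897191 to 52949860 in GRCh38) had 5.42, 0.554, 0.845 and 0.225 TPM in rBMECs, against 8037, 7929 and 7053 TPM in hBMEC-like cells, a log2 difference of -12.05 ± 1.09 (SE, adjusted p = 1.9e-05), and without rBMEC replicate 1 the log2 fold change was -13.83. Its filament partner *KRT18* had 0.0691, 0, 0.365 and 0.219 TPM in rBMECs, against 6501, 6206 and 5032 TPM in hBMEC-like cells, a log2 difference of -15.13 ± 0.46 (SE, adjusted p = 1.9e-07), or -15.75 without rBMEC replicate 3. *KRT19* was at 0, 0, 0.633 and 0 TPM in rBMECs, against 2467, 2275 and 1991 TPM in hBMEC-like cells. *KRT7* was the exception in level, with 319, 31.5, 49.9 and 35.3 TPM in rBMECs, against 1920.0, 1752 and 1314 TPM in hBMEC-like cells, a log2 difference of -3.93 ± 0.87 (SE, adjusted p = 0.0033), and rBMEC replicate 1 was the highest rBMEC library. Without it the log2 fold change was -5.42.

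The adhesion molecules of epithelia followed. *CDH1*, which encodes E-cadherin, had 2.07, 0.102, 0.170 and 0.204 TPM in rBMECs, against 547, 528 and 444 TPM in hBMEC-like cells, a log2 difference of -9.57 ± 0.96 (SE, adjusted p = 3.6e-05), and without rBMEC replicate 1 the log2 fold change was -11.60. *EPCAM* had 0.130, 0.306, 0.684 and 0.615 TPM in rBMECs, against 708, 679.8 and 704 TPM in hBMEC-like cells, a log2 difference of -10.66 ± 0.33 (SE, adjusted p = 1.9e-07). *SPINT2*, a protease inhibitor of epithelial surfaces, was lower in rBMECs but present, with 77.1, 94.7, 82.1 and 89.3 TPM in rBMECs, against 816, 826 and 816 TPM in hBMEC-like cells, a log2 difference of -3.26 ± 0.10 (SE, adjusted p = 2.0e-07). *GRHL2*, a grainyhead factor that maintains epithelial junctions, had 1.34, 0, 0 and 0.0799 TPM in rBMECs, against 49.9, 54.2 and 45.7 TPM in hBMEC-like cells, a log2 difference of -7.02 ± 1.01 (SE, adjusted p = 2.9e-04), or -10.63 without rBMEC replicate 1. *ESRP1*, an epithelial splicing regulator, had 151, 138 and 149.6 TPM in hBMEC-like cells and was listed at 0 in all 8 rat libraries. It also had 0 counts in the hEC and hCEC libraries at high shear.

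Desmosomes, the spot junctions that anchor keratin, were lower in rBMECs for 9 of 10 tested genes and higher for 1. *DSP*, the desmoplakin gene, had 63.7, 37.4, 35 and 46.3 TPM in rBMECs, against 633, 583 and 655 TPM in hBMEC-like cells, a log2 difference of -3.77 ± 0.23 (SE, adjusted p = 2.4e-06). *JUP*, which encodes plakoglobin, had 38.3, 60.9, 83.9 and 77.8 TPM in rBMECs, against 455, 442 and 438 TPM in hBMEC-like cells, a log2 difference of -2.77 ± 0.25 (SE, adjusted p = 2.1e-05). In hECs and hCECs *JUP* was at 652 and 545 TPM. *DSG2*, a desmosomal cadherin, was at 0.385, 0.158, 0.0442 and 0.159 TPM in rBMECs, against 231, 232 and 232 TPM in hBMEC-like cells. The gene that went the other way was *PKP1*, a plakophilin, with 639.7, 39.6, 55.6 and 60.3 TPM in rBMECs, against 0.0224, 0 and 0 TPM in hBMEC-like cells. Replicate 1 was over 10 times as high as each other rBMEC library for *PKP1*, and the gene was called without it as well.

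**Figure D2:**
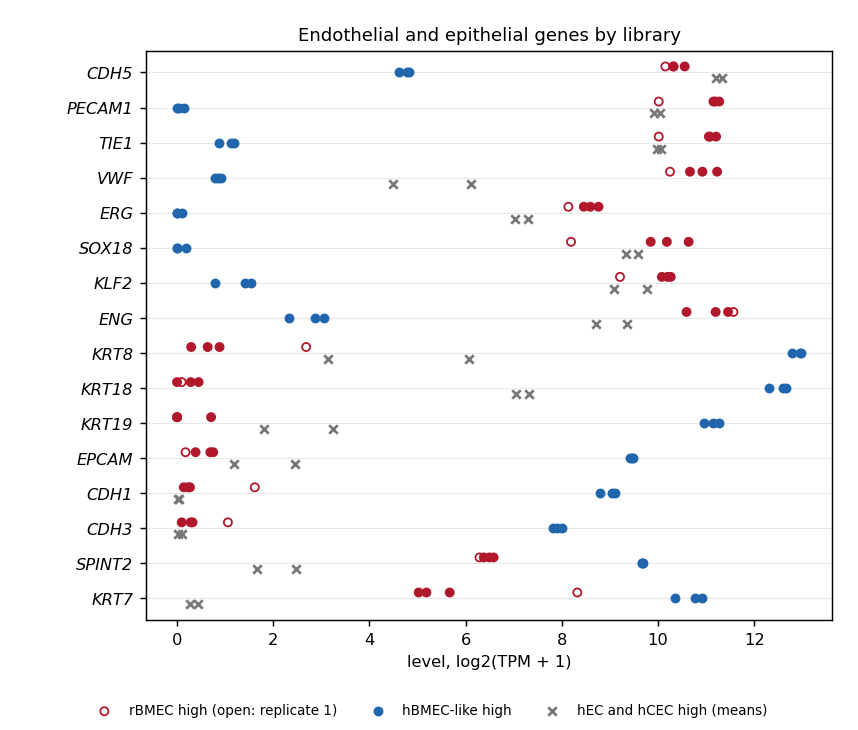
Levels of 16 endothelial and epithelial genes as log2(TPM + 1) in each library. Red points are the 4 rBMEC high-shear libraries (open for replicate 1), blue points the 3 hBMEC-like high-shear libraries and gray crosses the means of hECs and hCECs at high shear. The 2 models do not overlap for any of these identity genes, while 62.0% of all genes tested were called. Of the rBMEC libraries, replicate 1 lies nearest to hBMEC-like cells for *KRT7*, *KRT8* and *CDH1*. The same holds for *CDH5*, *PECAM1*, *TIE1*, *VWF*, *ERG*, *SOX18* and *KLF2*, but not for *ENG*, *KRT18*, *KRT19*, *EPCAM* or *SPINT2*.

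The claudins, which set the tightness and selectivity of tight junctions, differed in identity more than in sum. Of 16 tested, 3 were higher in rBMECs and 13 lower, with a median of -6.09 (-5.51 with genes at 0 set to the bound). *CLDN5*, the main claudin of brain endothelium (chromosome 22, 19523024 to 19525337 in GRCh38), had 766, 5446, 7637 and 3651 TPM in rBMECs, against 0, 0.152 and 0.0766 TPM in hBMEC-like cells. Its level in rBMEC replicate 1 was the lowest of the 4, and hECs and hCECs averaged 766 and 862 TPM. *CLDN6*, a claudin of embryonic epithelium (chromosome 16, 3014712 to 3018183 in GRCh38), had 0.0475, 0, 0.0627 and 0 TPM in rBMECs, against 1703, 1735 and 1701 TPM in hBMEC-like cells. The claudins of adult epithelia had the same direction. *CLDN4* had 1.05, 0, 0.0694 and 0 TPM in rBMECs, against 209, 194 and 170.4 TPM in hBMEC-like cells. *CLDN7* had 0, 0, 0 and 0.146 TPM in rBMECs, against 201, 188 and 163 TPM in hBMEC-like cells. *CLDN3* was at 0, 0, 0.0847 and 0 TPM in rBMECs, against 45.4, 46.5 and 40.9 TPM in hBMEC-like cells. For each of these epithelial claudins all rBMEC libraries were near 0. *CLDN12* was expressed in both, with 12.4, 13.6, 15.1 and 11 TPM in rBMECs, against 48.9, 41.8 and 48.4 TPM in hBMEC-like cells, a log2 difference of -1.83 ± 0.14 (SE, adjusted p = 6.4e-06). *CLDN1* was low in both, with 4.43, 2.98, 5.50 and 2.04 TPM in rBMECs, against 1.49, 1.89 and 1.56 TPM in hBMEC-like cells, a log2 difference of 1.18 ± 0.39 (SE, adjusted p = 0.022), and it was not called without rBMEC replicate 3 (0.94) or without hBMEC-like replicate 1 or 3 (1.11 and 1.14). *CLDN5* made most of the claudin sum in rBMECs and *CLDN6* in hBMEC-like cells. The sum was 791 to 7670 TPM in rBMECs, against 2176 to 2267 TPM in hBMEC-like cells.

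Other tight junction genes were divided, with 8 of 21 higher in rBMECs and 10 lower. *F11R*, which encodes the junctional adhesion molecule JAM-A, had 746, 1386, 1297 and 1430.0 TPM in rBMECs, against 272, 268 and 256 TPM in hBMEC-like cells, a log2 difference of 2.19 ± 0.24 (SE, adjusted p = 5.6e-05). Its endothelial relatives *ESAM* and *JAM2* were below 2 TPM in hBMEC-like cells. *ESAM* had 241, 645, 608 and 611 TPM in rBMECs, against 1.67, 1.72 and 0.887 TPM in hBMEC-like cells, a log2 difference of 8.55 ± 0.53 (SE, adjusted p = 2.6e-06). *JAM2* had 51.8, 131, 166 and 117 TPM in rBMECs, against 0.775, 1.35 and 1.34 TPM in hBMEC-like cells, a log2 difference of 6.64 ± 0.50 (SE, adjusted p = 7.0e-06). *CGNL1*, a cingulin-like scaffold, was at 331, 518, 426 and 506 TPM in rBMECs, against 32.4, 33.9 and 27.1 TPM in hBMEC-like cells, a log2 difference of 3.84 ± 0.21 (SE, adjusted p = 1.5e-06). *OCLN*, the occludin gene, had 104, 190.4, 149 and 191 TPM in rBMECs, against 1.15, 1.34 and 0.922 TPM in hBMEC-like cells. The paper, however, shows occludin protein in hBMEC-like cells by immunofluorescence. *TJP1*, which encodes ZO-1, had 249, 443, 528 and 426 TPM in rBMECs, against 6.14, 6.55 and 4.78 TPM in hBMEC-like cells. Both were low in every human model, with 0.0539 and 0.0432 TPM for *OCLN* and 8.73 and 7.68 TPM for *TJP1* in hECs and hCECs, and reads of *OCLN* can be shared with a partial copy in the human genome, so these differences are uncertain. *LSR*, a tricellular junction protein of the BBB, was lower in rBMECs, with 25.4, 50.8, 64.8 and 57.3 TPM in rBMECs, against 155, 149 and 158 TPM in hBMEC-like cells, a log2 difference of -1.64 ± 0.28 (SE, adjusted p = 7.5e-04). Among cadherins, *CDH2*, which encodes N-cadherin, differed by less than 2-fold, with 62.1, 45.6, 70.6 and 58.8 TPM in rBMECs, against 111, 114 and 99.1 TPM in hBMEC-like cells, a log2 difference of -0.87 ± 0.15 (SE, adjusted p = 7.9e-04).

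**Figure D3:**
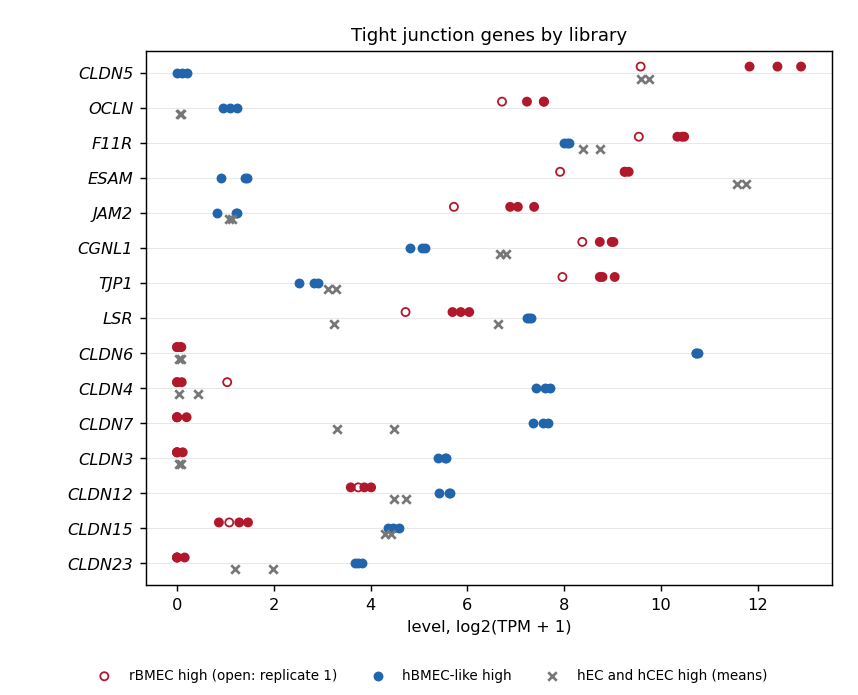
Levels of 15 tight junction genes as log2(TPM + 1) in each library, with symbols as for the endothelial and epithelial genes. *CLDN5* is high in the red rBMEC points and near 0 in the blue hBMEC-like points, whereas *CLDN6*, *CLDN4*, *CLDN7* and *CLDN3* show the reverse.

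Of 45 tested nutrient carriers of the BBB, 16 were higher in rBMECs and 13 lower, together close to the 62.0% called over all genes, with a median of -0.01. With housekeeping scaling 11 were higher and 21 lower. The glucose carriers differed by isoform. *SLC2A1*, which encodes GLUT1, the glucose carrier of the BBB, had 555, 1419, 1094 and 1173 TPM in rBMECs, against 462, 450.4 and 503 TPM in hBMEC-like cells, a log2 difference of 1.17 ± 0.29 (SE, adjusted p = 0.0061), and it was not called without rBMEC replicate 2 (1.00), with library totals (0.99) or with housekeeping scaling (0.28). *SLC2A3*, which encodes GLUT3, a carrier of neurons and early embryos, had 13.9, 6.74, 10.1 and 5.0 TPM in rBMECs, against 2197, 2307 and 1284 TPM in hBMEC-like cells, a log2 difference of -7.75 ± 0.46 (SE, adjusted p = 2.1e-06). The large neutral amino acid carrier LAT1 was divided by subunit, since *SLC7A5*, its light chain, had 209, 168, 174 and 149.8 TPM in rBMECs, against 978, 891 and 715 TPM in hBMEC-like cells, a log2 difference of -2.30 ± 0.16 (SE, adjusted p = 5.3e-06). *SLC3A2*, its heavy chain, did not pass the test, with 569, 397, 353 and 394 TPM in rBMECs, against 443, 455 and 378 TPM in hBMEC-like cells, a log2 difference of 0.01 ± 0.18 (SE, adjusted p = 0.96). *SLC16A1*, the lactate carrier MCT1, differed by less than 2-fold, with 171, 112, 73.2 and 125 TPM in rBMECs, against 239, 237 and 228 TPM in hBMEC-like cells, a log2 difference of -0.96 ± 0.25 (SE, adjusted p = 0.0072), and it was called without rBMEC replicate 1 (-1.18).

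*SLCO2B1*, an organic anion carrier of brain endothelium, had 28.8, 228, 166 and 166 TPM in rBMECs, against 0.109, 0.0227 and 0.0953 TPM in hBMEC-like cells. *SLCO1C1*, the thyroid hormone carrier OATP1C1, had 2.64, 23.8, 32.4 and 14.3 TPM in rBMECs, against 0.0265, 0 and 0.00928 TPM in hBMEC-like cells. Both were lowest in rBMEC replicate 1, and the groups did not overlap. *SLC6A6*, the taurine carrier, was higher in rBMECs, with 48.3, 71.4, 60.6 and 61.4 TPM in rBMECs, against 13.1, 16.3 and 14.6 TPM in hBMEC-like cells, a log2 difference of 2.04 ± 0.15 (SE, adjusted p = 7.3e-06). The iron exporter *SLC40A1* had 425, 257, 256 and 235 TPM in rBMECs, against 136, 132 and 77 TPM in hBMEC-like cells, a log2 difference of 1.35 ± 0.28 (SE, adjusted p = 0.0023), and it was not called with housekeeping scaling (0.42). The zinc exporter *SLC30A1* had 102, 162, 212 and 153 TPM in rBMECs, against 16.1, 19.8 and 14.2 TPM in hBMEC-like cells, a log2 difference of 3.23 ± 0.27 (SE, adjusted p = 1.2e-05). *SLC44A2*, a choline carrier-like protein, was lower in rBMECs, with 45.8, 62, 48 and 49.3 TPM in rBMECs, against 339, 343 and 363 TPM in hBMEC-like cells, a log2 difference of -2.76 ± 0.13 (SE, adjusted p = 7.1e-07). The lipid carrier of the BBB, *MFSD2A*, was low in both models, with 8.71, 3.23, 3.61 and 3.62 TPM in rBMECs, against 1.65, 0.964 and 1.47 TPM in hBMEC-like cells, a log2 difference of 1.82 ± 0.47 (SE, adjusted p = 0.0073). Without replicate 1, the highest library, the log2 fold change was 1.36 and still called, and it was 0.87 and not called with housekeeping scaling.

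Of the ABC transporters, 10 of 22 were higher in rBMECs and 3 lower, with a median of 0.87 that was -0.02 with housekeeping scaling. P-glycoprotein, the main drug pump of the BBB, is encoded by 2 genes in the rat and 1 in humans and was not matched by symbol, so its levels were not tested. *Abcb1a* had 314, 431, 437 and 462 TPM and *Abcb1b* 279, 122, 159 and 247 TPM in rBMECs, against 8.70, 8.21 and 7.31 TPM of *ABCB1* in hBMEC-like cells, and reads can be shared between the rat copies. *ABCB1* was lower still in the other human models at high shear. It had 0.239, 0.309 and 0.927 TPM in hECs and 0.240, 0.508 and 0.542 TPM in hCECs. *ABCG2*, the breast cancer resistance protein, differed by less than 2-fold, with 24.1, 69.3, 67.7 and 43.2 TPM in rBMECs, against 103, 90.1 and 93.5 TPM in hBMEC-like cells, a log2 difference of -0.90 ± 0.33 (SE, adjusted p = 0.033), and all rBMEC libraries were below all hBMEC-like libraries. Without rBMEC replicate 2 or 3 it was called (-1.09 and -1.07). *ABCC4* and *ABCC1*, pumps of organic anions, were higher in rBMECs, *ABCC4* with 102, 123, 119 and 97.6 TPM in rBMECs, against 6.39, 7.41 and 8.62 TPM in hBMEC-like cells, a log2 difference of 3.88 ± 0.16 (SE, adjusted p = 4.4e-07). *ABCC1* had 58.3, 49.1, 44.1 and 44.6 TPM in rBMECs, against 5.71, 7.39 and 7.27 TPM in hBMEC-like cells, a log2 difference of 2.85 ± 0.15 (SE, adjusted p = 1.4e-06). Its protein, MRP1, is shown in hBMEC-like cells by immunofluorescence in the paper. The largest difference among the abundant pumps was that of *ABCG1*, a cholesterol exporter, with 307, 347, 289 and 479 TPM in rBMECs, against 0.775, 0.912 and 1.27 TPM in hBMEC-like cells, a log2 difference of 8.48 ± 0.33 (SE, adjusted p = 3.3e-07).

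Among genes of receptor-mediated transport, 9 of 20 were higher in rBMECs and 5 lower, and their median of 0.71 was -0.19 with housekeeping scaling. *TFRC*, the transferrin receptor used to carry drugs across the BBB, did not pass the test, with 151, 55.1, 59.6 and 60.2 TPM in rBMECs, against 45.8, 58.1 and 51.5 TPM in hBMEC-like cells, a log2 difference of 0.65 ± 0.37 (SE, adjusted p = 0.13). *BSG*, the basigin gene, differed by less than 2-fold, with 1328, 1344, 1165 and 1408 TPM in rBMECs, against 878, 896 and 932 TPM in hBMEC-like cells, a log2 difference of 0.54 ± 0.11 (SE, adjusted p = 0.0023). *LRP2*, the megalin receptor of absorptive epithelia, had 0.195, 0.0288, 0.0644 and 0.0450 TPM in rBMECs, against 159, 121 and 89.2 TPM in hBMEC-like cells. *FCGRT*, the neonatal Fc receptor that recycles IgG, was higher in rBMECs, with 149, 392, 465 and 256 TPM in rBMECs, against 35.1, 33.6 and 37.9 TPM in hBMEC-like cells, a log2 difference of 3.15 ± 0.39 (SE, adjusted p = 1.2e-04).

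Genes of caveolae, the flask-shaped pits of endothelium, and of transcytosis were higher in rBMECs for 11 of 16 tested and lower for 3, with a median of 4.29. *CAV1* had 945, 1539.8, 1192 and 1560.2 TPM in rBMECs, against 15.9, 10.3 and 9.07 TPM in hBMEC-like cells, a log2 difference of 6.80 ± 0.34 (SE, adjusted p = 9.8e-07). Its coat partner *CAVIN1* had 1004, 1271, 1090.0 and 1659 TPM in rBMECs, against 70.4, 64.4 and 47.1 TPM in hBMEC-like cells, a log2 difference of 4.37 ± 0.26 (SE, adjusted p = 2.2e-06). *CAVIN2*, the cavin most tied to endothelium, had 114, 245, 147 and 203 TPM in rBMECs, against 0.399, 0.166 and 0.0839 TPM in hBMEC-like cells. *EHD2*, which sits at the caveolar neck, was at 730.2, 1318, 1078 and 1265 TPM in rBMECs, against 57.9, 53.1 and 43.3 TPM in hBMEC-like cells, a log2 difference of 4.42 ± 0.26 (SE, adjusted p = 2.2e-06). *DNM2*, a dynamin used in all endocytosis, did not pass the test, with 136, 169, 161 and 158 TPM in rBMECs, against 143, 139.9 and 139 TPM in hBMEC-like cells, a log2 difference of 0.15 ± 0.10 (SE, adjusted p = 0.2).

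**Figure D4:**
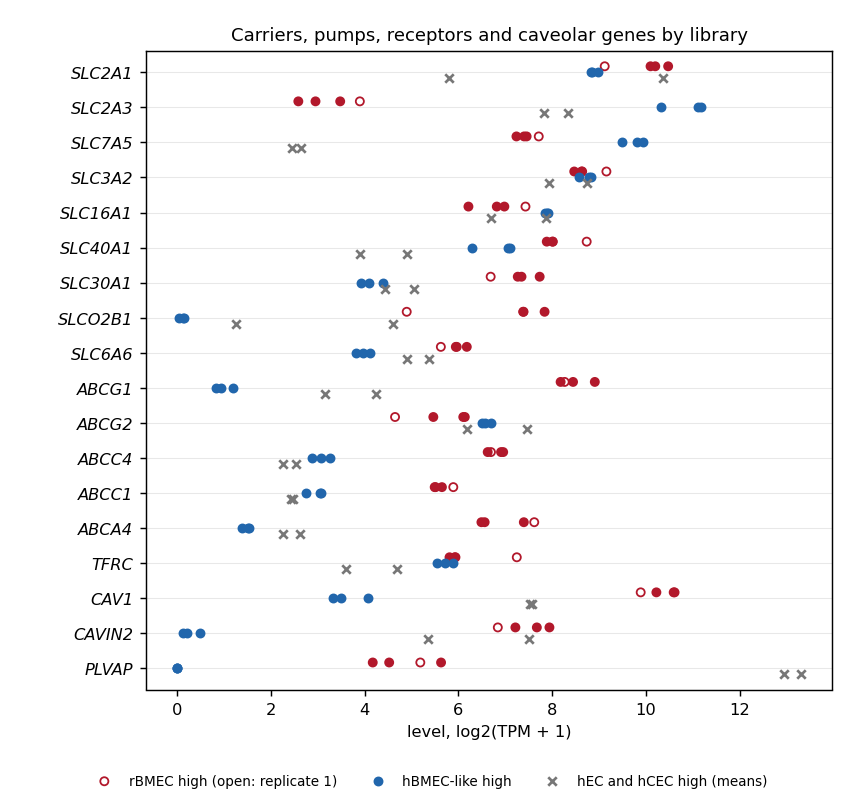
Levels of 18 carriers, pumps, receptors and caveolar genes as log2(TPM + 1) in each library, with symbols as for the endothelial and epithelial genes. The models overlap for *SLC3A2* and *TFRC*, *SLC2A3* and *SLC7A5* lie lower in rBMECs, and *SLCO2B1*, *ABCG1*, *CAV1* and *CAVIN2* lie higher.

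A list of genes tied to brain endothelium had 20 of 35 members higher in rBMECs and 6 lower, with a median of 1.82. With housekeeping scaling 17 were higher and 9 lower, with a median of 0.87. hECs and hCECs, set against the same hBMEC-like libraries, had 12 of 32 higher and 10 lower with a median of -0.47, beside those 2455 higher and 3187 lower over all genes. *ITM2A*, a membrane protein of brain endothelium, had 506, 515, 477 and 539.6 TPM in rBMECs, against 13.7, 15.1 and 14.2 TPM in hBMEC-like cells, a log2 difference of 5.15 ± 0.11 (SE, adjusted p = 1.1e-07). *ADGRA2*, the Wnt7 co-receptor GPR124, had 243, 309.9, 241 and 285 TPM in rBMECs, against 4.77, 4.99 and 6.56 TPM in hBMEC-like cells, a log2 difference of 5.63 ± 0.20 (SE, adjusted p = 2.4e-07). The zinc finger gene *ZIC2* was at 43.9, 127, 146 and 118 TPM in rBMECs, against 0.123, 0 and 0 TPM in hBMEC-like cells, and it was also near 0 in hECs and hCECs. In contrast, *LEF1* and *AXIN2*, targets of Wnt/β-catenin signaling, were lower in rBMECs, *LEF1* with 22.6, 38.1, 45.4 and 37.9 TPM in rBMECs, against 134, 149 and 139.8 TPM in hBMEC-like cells, a log2 difference of -1.97 ± 0.21 (SE, adjusted p = 5.5e-05). *AXIN2* had 5.52, 4.98, 4.40 and 5.43 TPM in rBMECs, against 25.2, 34.4 and 27.2 TPM in hBMEC-like cells, a log2 difference of -2.51 ± 0.15 (SE, adjusted p = 2.3e-06).

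The Wnt pathway as a whole had 13 of 44 genes higher in rBMECs and 21 lower. Its receptors differed by type. *FZD4*, the Norrin receptor of brain vessels, had 81.4, 146, 159 and 143 TPM in rBMECs, against 31.4, 34.8 and 35.2 TPM in hBMEC-like cells, a log2 difference of 1.97 ± 0.23 (SE, adjusted p = 9.2e-05). *FZD6* had 179, 387, 429.7 and 394 TPM in rBMECs, against 53.5, 49.7 and 47.6 TPM in hBMEC-like cells, a log2 difference of 2.79 ± 0.31 (SE, adjusted p = 6.2e-05). *FZD7* (2.72, 0.712, 0.620 and 0.248 TPM in rBMECs, against 126, 142 and 167 TPM in hBMEC-like cells) and *FZD2* (7.03, 1.58, 3.07 and 1.31 TPM, against 112, 137 and 127 TPM) showed the reverse. The secreted inhibitor *SFRP1* was at 0.389, 0.229, 0.0962 and 0.0769 TPM in rBMECs, against 159.7, 216 and 315 TPM in hBMEC-like cells. *CTNNB1*, the β-catenin gene, differed by less than 2-fold, with 573, 911, 903 and 1130.4 TPM in rBMECs, against 469, 487 and 559 TPM in hBMEC-like cells, a log2 difference of 0.80 ± 0.23 (SE, adjusted p = 0.011).

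rBMECs expressed the equipment for contact with leukocytes. Of 25 tested genes of adhesion and chemokines, 20 were higher in rBMECs and 0 lower, with a median of 3.83. *ICAM1* had 140.0, 135, 85.7 and 201 TPM in rBMECs, against 3.37, 3.08 and 1.53 TPM in hBMEC-like cells, a log2 difference of 5.74 ± 0.42 (SE, adjusted p = 6.1e-06). *VCAM1* had 13.7, 52.2, 36.4 and 60.3 TPM in rBMECs, against 0.533, 0.698 and 1.60 TPM in hBMEC-like cells, a log2 difference of 5.39 ± 0.66 (SE, adjusted p = 1.2e-04), or 6.03 without hBMEC-like replicate 3. Both are adhesion receptors for leukocyte integrins, and neither overlapped between the models. *CX3CL1*, the membrane-bound chemokine fractalkine, had 295, 344, 235 and 498 TPM in rBMECs, against 0.404, 0 and 0.129 TPM in hBMEC-like cells. *NFKBIA*, the inhibitor and target of NF-κB, was at 380.1, 1287, 1114 and 1174 TPM in rBMECs, against 62.3, 80.1 and 66.6 TPM in hBMEC-like cells, a log2 difference of 3.83 ± 0.44 (SE, adjusted p = 7.6e-05). *CXCL16* had 355, 338, 367 and 542 TPM in rBMECs, against 7.98, 8.60 and 6.44 TPM in hBMEC-like cells, a log2 difference of 5.71 ± 0.24 (SE, adjusted p = 5.3e-07). *IL1R1*, the IL-1 receptor, had 115, 124, 131 and 133 TPM in rBMECs, against 1.78, 0.947 and 1.04 TPM in hBMEC-like cells, a log2 difference of 6.66 ± 0.27 (SE, adjusted p = 4.0e-07). *ACKR3*, a scavenger receptor for CXCL12, did not pass the test, with 29.2, 182, 233 and 158 TPM in rBMECs, against 229, 220.0 and 285 TPM in hBMEC-like cells, a log2 difference of -0.70 ± 0.56 (SE, adjusted p = 0.27).

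Genes of the interferon response and antigen presentation were higher in rBMECs for 21 of 26 tested and lower for 2, with a median of 4.19. Several of them lie in the region of chromosome 6 named above, and 3 had 0 counts in all human libraries. Outside that region, *IFIT3* had 267, 417, 274 and 393 TPM in rBMECs, against 0.429, 0.930 and 0.421 TPM in hBMEC-like cells, a log2 difference of 9.14 ± 0.38 (SE, adjusted p = 4.8e-07). *GBP2*, an interferon-induced GTPase, had 152, 238, 181 and 275 TPM in rBMECs, against 0.149, 0.522 and 0.251 TPM in hBMEC-like cells. The list summed to 2957 to 5749 TPM in rBMECs, against 329 to 345 TPM in hBMEC-like cells, and hECs and hCECs summed to 432 to 547 TPM. *IRF1*, a transcription factor of the response, had 37.6, 126, 88 and 113 TPM in rBMECs, against 9.72, 10.1 and 12.8 TPM in hBMEC-like cells, a log2 difference of 3.06 ± 0.41 (SE, adjusted p = 2.0e-04). *B2M*, the light chain of MHC class I, had 1424, 2903, 2642 and 3313 TPM in rBMECs, against 14.2, 18.3 and 17.7 TPM in hBMEC-like cells. It averaged 81.9 and 121 TPM in hECs and hCECs. *B2M* was thus far lower in every human model, and as for *ALDOA*, a low transcript level and loss of reads in counting cannot be told apart.

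The VEGF and Tie receptors and ligands were higher in rBMECs for 13 of 20 tested and lower for 5. *ANGPT2*, a ligand of the TEK receptor that endothelium stores and releases, had 567, 521, 603 and 635 TPM in rBMECs, against 0.561, 0.150 and 0.0157 TPM in hBMEC-like cells, and *TEK* itself had 265, 610.4, 704 and 526 TPM in rBMECs, against 14.2, 20.5 and 16.1 TPM in hBMEC-like cells, a log2 difference of 4.96 ± 0.39 (SE, adjusted p = 8.7e-06). *APLN*, a peptide of tip cells, had 900.5, 604, 236 and 757 TPM in rBMECs, against 1.06, 0.819 and 0.291 TPM in hBMEC-like cells, a log2 difference of 9.79 ± 0.73 (SE, adjusted p = 6.9e-06). *PGF*, the placental growth factor, was at 562, 921, 1277 and 875 TPM in rBMECs, against 25.4, 27.3 and 31.1 TPM in hBMEC-like cells, a log2 difference of 5.02 ± 0.31 (SE, adjusted p = 2.6e-06). *VEGFA*, the ligand, was low in both, at 18.7, 6.63, 5.38 and 6.51 TPM in rBMECs, against 16.1, 13.2 and 10.7 TPM in hBMEC-like cells, a log2 difference of -0.52 ± 0.44 (SE, adjusted p = 0.3). It was called as lower without rBMEC replicate 1 (-1.11).

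Of the Notch and arteriovenous genes, 12 of 22 were higher in rBMECs and 5 lower (9 and 6 with housekeeping scaling). The ligand *DLL4* had 56.1, 250.1, 222 and 353 TPM in rBMECs, against 0.427, 0.297 and 0.623 TPM in hBMEC-like cells. *CXCR4*, a chemokine receptor of arterial and tip cells, had 401, 1200.3, 1600.3 and 1145 TPM in rBMECs, against 1.05, 0.786 and 0.917 TPM in hBMEC-like cells, a log2 difference of 10.21 ± 0.64 (SE, adjusted p = 2.8e-06). *NOTCH1* was at 120.3, 219, 139.9 and 219 TPM in rBMECs, against 31.7, 26.6 and 24.5 TPM in hBMEC-like cells, a log2 difference of 2.66 ± 0.26 (SE, adjusted p = 3.2e-05). *GJA1*, the connexin 43 gene, was lower in rBMECs, with 67.9, 35.6, 48.3 and 36.6 TPM in rBMECs, against 433, 435 and 415 TPM in hBMEC-like cells, a log2 difference of -3.18 ± 0.23 (SE, adjusted p = 6.2e-06). The general Notch target *HES1* did not pass the test, with 105, 182, 177 and 182 TPM in rBMECs, against 159, 151 and 149 TPM in hBMEC-like cells, a log2 difference of 0.08 ± 0.19 (SE, adjusted p = 0.71). In the TGF-β and BMP pathway 13 of 41 genes were higher in rBMECs and 15 lower (11 and 21 with housekeeping scaling). The endothelial receptor *ACVRL1* had 349, 492, 391 and 455 TPM in rBMECs, against 0.245, 0.227 and 0.114 TPM in hBMEC-like cells, a log2 difference of 11.10 ± 0.31 (SE, adjusted p = 1.5e-07). *TGFBR2* had 199.8, 573, 656 and 513 TPM in rBMECs, against 13.1, 11.9 and 9.71 TPM in hBMEC-like cells, a log2 difference of 5.39 ± 0.46 (SE, adjusted p = 1.4e-05). The targets of BMP signaling *ID1* and *ID3* were lower in rBMECs, *ID1* with 169.8, 228, 241 and 184 TPM in rBMECs, against 1047, 1059.9 and 1016 TPM in hBMEC-like cells, a log2 difference of -2.34 ± 0.14 (SE, adjusted p = 2.4e-06). *ID3* had 432, 456, 455 and 411 TPM in rBMECs, against 902, 1157 and 1155 TPM in hBMEC-like cells, a log2 difference of -1.29 ± 0.12 (SE, adjusted p = 1.9e-05). *SMAD6* and *SMAD7*, the inhibitory SMADs, differed by less than 2-fold, with log2 fold changes of 0.80 and -0.69.

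Both models were under the same shear, and genes known to be induced by shear in endothelium were higher in rBMECs for 17 of 24 tested and lower for 2, with a median of 3.08. These are differences in level at high shear and not in the response to shear. The test of whether the model difference changed with shear, given below, called 1 gene of this list. *NOS3*, the endothelial nitric oxide synthase, had 508, 868, 726 and 754 TPM in rBMECs, against 8.49, 9.45 and 5.01 TPM in hBMEC-like cells, a log2 difference of 6.55 ± 0.34 (SE, adjusted p = 1.2e-06). *KLF4* had 114, 152, 123 and 139 TPM in rBMECs, against 14.9, 16.1 and 13.2 TPM in hBMEC-like cells, a log2 difference of 3.16 ± 0.14 (SE, adjusted p = 6.7e-07). *NQO1*, a target of the oxidative stress factor NRF2, had 6896, 3244, 1823 and 3124 TPM in rBMECs, against 112, 61.3 and 66.8 TPM in hBMEC-like cells, a log2 difference of 5.56 ± 0.56 (SE, adjusted p = 3.6e-05). *CYP1A1*, a target of the aryl hydrocarbon receptor, was closer, with 847, 455, 478 and 219.9 TPM in rBMECs, against 131, 137 and 98.4 TPM in hBMEC-like cells, a log2 difference of 2.04 ± 0.42 (SE, adjusted p = 0.0022). Of 17 tested flow sensors, 11 were higher in rBMECs and 1 lower (9 and 3 with housekeeping scaling). The receptor *S1PR1* had 237, 704, 788 and 794 TPM in rBMECs, against 5.67, 6.76 and 10.4 TPM in hBMEC-like cells, a log2 difference of 6.37 ± 0.55 (SE, adjusted p = 1.5e-05). *PLXND1* had 129.6, 393, 547 and 369 TPM in rBMECs, against 27.7, 23.2 and 23.9 TPM in hBMEC-like cells, a log2 difference of 3.85 ± 0.47 (SE, adjusted p = 1.2e-04). The ion channel *PIEZO1* did not pass the test, with 102, 121, 111 and 112 TPM in rBMECs, against 123, 123 and 113 TPM in hBMEC-like cells, a log2 difference of -0.10 ± 0.10 (SE, adjusted p = 0.38).

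Genes of coagulation and fibrinolysis were higher in rBMECs for 12 of 21 tested and lower for 1, and with housekeeping scaling 10 were higher and 6 lower. *PLAT*, the tissue plasminogen activator, had 521, 1629.6, 1764 and 1762 TPM in rBMECs, against 12.9, 8.42 and 24.7 TPM in hBMEC-like cells, a log2 difference of 6.53 ± 0.65 (SE, adjusted p = 3.5e-05). Of the vasoactive mediators, 13 of 27 were higher in rBMECs and 10 lower, but with housekeeping scaling 11 were higher and 12 lower. Their median of 1.13 was 0.16 with that scaling and 0.03 without rBMEC replicate 1. *EDN1*, the vasoconstrictor endothelin-1, had 846, 1069, 822 and 1117 TPM in rBMECs, against 7.36, 7.37 and 7.05 TPM in hBMEC-like cells, a log2 difference of 7.05 ± 0.19 (SE, adjusted p = 1.4e-07). *ADM*, the vasodilator adrenomedullin, had 1231, 868, 752 and 887 TPM in rBMECs, against 19.5, 19.5 and 13.3 TPM in hBMEC-like cells, a log2 difference of 5.74 ± 0.26 (SE, adjusted p = 7.1e-07). *ACE*, which makes angiotensin II, had 20.5, 327, 382 and 188 TPM in rBMECs, against 0.965, 0.954 and 0.739 TPM in hBMEC-like cells, a log2 difference of 8.02 ± 1.10 (SE, adjusted p = 2.3e-04), and replicate 1 was far below the other rBMEC libraries.

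Matrix genes went in both directions. Basement membrane genes were higher in rBMECs for 9 of 27 and lower for 9 (9 and 13 with housekeeping scaling), near the 28.4% and 33.7% over all genes. The list summed to 14129 to 15223 TPM in rBMECs, against 3481 to 3822 TPM in hBMEC-like cells. Its median of 0.69 was -0.12 without rBMEC replicate 1 and -0.23 with housekeeping scaling. *COL4A1* had 2454, 2199.6, 2499 and 2545 TPM in rBMECs, against 74.2, 69.2 and 59.7 TPM in hBMEC-like cells, a log2 difference of 5.16 ± 0.19 (SE, adjusted p = 2.8e-07). *SPARC*, which binds collagen IV, had 6984, 6747, 6388 and 7301 TPM in rBMECs, against 404, 398 and 462 TPM in hBMEC-like cells, a log2 difference of 4.02 ± 0.17 (SE, adjusted p = 4.7e-07). *LAMB1*, a laminin chain, was lower in rBMECs, with 104, 40, 103 and 46.4 TPM in rBMECs, against 514, 513 and 399.8 TPM in hBMEC-like cells, a log2 difference of -2.70 ± 0.37 (SE, adjusted p = 2.3e-04). Interstitial matrix genes were higher in rBMECs for 12 of 38 and lower for 22, although the list summed to 12131 to 26415 TPM in rBMECs, against 10180.0 to 11766 TPM in hBMEC-like cells. *COL3A1* and *COL1A1*, which encode fibrillar collagens, were lower in rBMECs. *COL3A1* had 196, 77.8, 41.7 and 48.3 TPM in rBMECs, against 2519.6, 2550.5 and 2889 TPM in hBMEC-like cells, a log2 difference of -4.87 ± 0.57 (SE, adjusted p = 9.2e-05). *COL1A1* had 158, 38.3, 28 and 18.7 TPM in rBMECs, against 1504, 1484 and 1678 TPM in hBMEC-like cells, a log2 difference of -4.68 ± 0.75 (SE, adjusted p = 5.7e-04). Replicate 1 was the highest rBMEC library for both, and without it the log2 fold changes were -5.57 and -5.78. *FN1*, the fibronectin gene, was high in both, with 10040.5, 3748, 3887 and 4277 TPM in rBMECs, against 2988, 2605 and 1896 TPM in hBMEC-like cells, a log2 difference of 1.14 ± 0.42 (SE, adjusted p = 0.035). It was not called without rBMEC replicate 1 (0.67) or without any 1 of the hBMEC-like replicates (0.97 to 1.29). *CCN2* and *THBS1*, matricellular genes, were higher in rBMECs, *CCN2* with 3704, 3432, 2314 and 3153 TPM in rBMECs, against 226, 215 and 159 TPM in hBMEC-like cells, a log2 difference of 3.98 ± 0.24 (SE, adjusted p = 2.4e-06). *THBS1* had 2885, 769.8, 985 and 1258 TPM in rBMECs, against 41.7, 38.5 and 25.6 TPM in hBMEC-like cells, a log2 difference of 5.39 ± 0.57 (SE, adjusted p = 5.0e-05).

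Genes of the glycocalyx and integrins also went in both directions. Of 22 glycocalyx genes, 4 were higher in rBMECs and 11 lower. *GPC3*, an oncofetal heparan sulfate proteoglycan, had 0.125, 0.540, 0.219 and 0 TPM in rBMECs, against 2793, 3100.0 and 4299 TPM in hBMEC-like cells, a log2 difference of -13.93 ± 0.63 (SE, adjusted p = 6.5e-07), or -14.87 without rBMEC replicate 2. *PODXL*, a sialomucin of both endothelium and epithelium, did not pass the test, with 489.8, 818, 765 and 823 TPM in rBMECs, against 577, 525 and 418 TPM in hBMEC-like cells, a log2 difference of 0.51 ± 0.22 (SE, adjusted p = 0.056). Of 17 integrins, 6 were higher in rBMECs and 7 lower, beside 28.4% and 33.7% over all genes. The integrin counts were 4 and 8 under library totals and 3 and 9 under housekeeping scaling. *ITGA5*, the fibronectin receptor subunit, had 437, 428, 524 and 386 TPM in rBMECs, against 53.5, 50.2 and 41.5 TPM in hBMEC-like cells, a log2 difference of 3.20 ± 0.16 (SE, adjusted p = 1.1e-06). *ITGB5* had 10, 3.12, 5.29 and 3.42 TPM in rBMECs, against 196, 178 and 184 TPM in hBMEC-like cells, a log2 difference of -5.09 ± 0.41 (SE, adjusted p = 1.1e-05). Of 37 axon guidance genes, 9 were higher in rBMECs and 19 lower. *SEMA7A*, a membrane-anchored semaphorin, had 1701, 2079, 1498 and 2708 TPM in rBMECs, against 10.2, 7.47 and 5.69 TPM in hBMEC-like cells, a log2 difference of 8.0 ± 0.37 (SE, adjusted p = 7.6e-07). *SEMA3G*, a semaphorin of arterial endothelium, had 106, 463, 360.0 and 558 TPM in rBMECs, against 0.0723, 0.221 and 0.203 TPM in hBMEC-like cells.

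hBMEC-like cells carried transcripts of embryonic and retinoid programs. Of 20 retinoic acid genes tested, 13 were lower in rBMECs and 3 higher, with a median of -5.16 (-4.82 with genes at 0 set to the bound). *CYP26A1*, a retinoic acid hydroxylase that is itself induced by retinoic acid, had 0, 0.194, 0.434 and 0 TPM in rBMECs, against 852, 1097 and 1238 TPM in hBMEC-like cells. *CRABP2*, which carries retinoic acid to the nucleus, had 22.2, 1.73, 3.88 and 2.20 TPM in rBMECs, against 1847, 1835 and 2493 TPM in hBMEC-like cells, a log2 difference of -8.07 ± 0.91 (SE, adjusted p = 7.1e-05), or -9.65 without rBMEC replicate 1. *TGM2*, a transglutaminase, went the other way, with 160.1, 318, 457 and 337 TPM in rBMECs, against 56.6, 52.3 and 39.4 TPM in hBMEC-like cells, a log2 difference of 2.69 ± 0.35 (SE, adjusted p = 1.7e-04). HOX genes set position along the body axis and are not active in the developing forebrain. Of 21 tested, 20 were lower in rBMECs and 1 higher, and 22 of the 38 matched had 0 counts in all 8 rat libraries. *HOXB2* had 1.10, 1.29, 0.562 and 2.95 TPM in rBMECs, against 209, 218 and 219 TPM in hBMEC-like cells, a log2 difference of -7.16 ± 0.41 (SE, adjusted p = 1.9e-06), or -7.74 without rBMEC replicate 4. *HOXA5* had 0, 0, 0 and 0.0340 TPM in rBMECs, against 116, 141 and 215 TPM in hBMEC-like cells. hECs and hCECs also had HOX transcripts, at 33.8 and 51.5 TPM for *HOXB2* and 20 and 16.3 TPM for *HOXA5*. The list summed to 3.09 to 7.78 TPM in rBMECs, against 1169 to 1654 TPM in hBMEC-like cells, and to 641 to 933 TPM in hECs and hCECs. Of 30 HOX genes tested in hECs and hCECs, 12 were higher and 13 lower than in hBMEC-like cells. Over all genes of that comparison 43.6% were called in either direction. HOX transcripts were thus not particular to hBMEC-like cells among the human models.

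Genes of pluripotent and early embryonic cells were lower in rBMECs for 12 of 15 tested and higher for 3, with a median of -6.12. *LIN28B*, which blocks let-7 maturation, had 0, 0, 0.0879 and 0.176 TPM in rBMECs, against 108, 112 and 113 TPM in hBMEC-like cells. *DNMT3B*, a DNA methyltransferase, had 6.15, 2.86, 2.71 and 2.93 TPM in rBMECs, against 61.4, 65.8 and 75.5 TPM in hBMEC-like cells, a log2 difference of -4.20 ± 0.31 (SE, adjusted p = 6.4e-06). *LIN28A* had 351, 378 and 404 TPM in hBMEC-like cells and was listed at 0 in all 8 rat libraries, and so was *SALL4*, with 53.4, 56 and 59.7 TPM in hBMEC-like cells. Imprinted and oncofetal growth genes were lower in rBMECs for 12 of 16 and higher for 2. *IGF2* had 0.319, 0.235, 0.0702 and 0.351 TPM in rBMECs, against 299, 335 and 369 TPM in hBMEC-like cells. *PEG10* had 2.15, 0.888, 1.25 and 1.32 TPM in rBMECs, against 349, 317 and 361 TPM in hBMEC-like cells, a log2 difference of -7.92 ± 0.31 (SE, adjusted p = 3.7e-07). hECs and hCECs, from the same line, had 151 and 184 TPM of *IGF2*. The list of imprinted and oncofetal growth genes summed to 143 to 202 TPM in rBMECs and 1933 to 2113 TPM in hBMEC-like cells. In hECs and hCECs it summed to 715 to 1277 TPM, and 3 of 15 genes were higher and 5 lower than in hBMEC-like cells. *GRB10*, a growth factor receptor adaptor, was higher in rBMECs, with 81.5, 97.1, 119.6 and 97 TPM in rBMECs, against 12.3, 11.6 and 11.2 TPM in hBMEC-like cells, a log2 difference of 3.08 ± 0.15 (SE, adjusted p = 9.3e-07).

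Transcripts of the cell cycle were lower in rBMECs. Of 37 cell cycle genes, 28 were lower in rBMECs and 4 higher, with a median of -2.37. *TOP2A* had 36.2, 37.4, 68.7 and 22.7 TPM in rBMECs, against 284, 292 and 334 TPM in hBMEC-like cells, a log2 difference of -2.88 ± 0.34 (SE, adjusted p = 8.9e-05). *MCM7*, a subunit of the replicative helicase, had 61.3, 67.1, 61.2 and 58.1 TPM in rBMECs, against 346, 362 and 385 TPM in hBMEC-like cells, a log2 difference of -2.56 ± 0.10 (SE, adjusted p = 3.0e-07). *CDKN1A*, the cell cycle inhibitor p21, was higher in rBMECs, with 667, 411, 416 and 431 TPM in rBMECs, against 187, 167 and 124 TPM in hBMEC-like cells, a log2 difference of 1.60 ± 0.23 (SE, adjusted p = 3.0e-04), but it was not called with housekeeping scaling (0.67). *PCNA* did not pass the test, with 306, 330.4, 248 and 304 TPM in rBMECs, against 285, 312 and 297 TPM in hBMEC-like cells, a log2 difference of 0.00 ± 0.11 (SE, adjusted p = 0.98). In cholesterol synthesis 11 of 23 genes were lower in rBMECs and 0 higher. *DHCR7*, which makes cholesterol in a last step of the pathway, had 21.9, 24, 17.3 and 23.5 TPM in rBMECs, against 286, 282 and 308 TPM in hBMEC-like cells, a log2 difference of -3.75 ± 0.13 (SE, adjusted p = 2.6e-07). Of 20 glycolytic genes, 6 were higher and 4 lower, but with housekeeping scaling 5 were higher and 13 lower. *GAPDH* did not pass the test, with 4501, 1649.8, 1643 and 2157 TPM in rBMECs, against 3990.4, 3897 and 4090.5 TPM in hBMEC-like cells, a log2 difference of -0.68 ± 0.36 (SE, adjusted p = 0.11), and it was called as lower without rBMEC replicate 1 (-1.14). *LDHB*, the heart form of lactate dehydrogenase, was lower in rBMECs, with 105, 182, 183 and 156 TPM in rBMECs, against 1150.1, 1259 and 1346 TPM in hBMEC-like cells, a log2 difference of -3.0 ± 0.20 (SE, adjusted p = 4.1e-06).

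Of the markers of mural cells, fibroblasts, astrocytes and neurons, 0 were higher in rBMECs, whereas other marker lists had members in both directions. Mural markers summed to 3.55 to 14.4 TPM in rBMECs, against 342 to 395 TPM in hBMEC-like cells, with 0 of 8 tested genes higher in rBMECs and 6 lower, and the pericyte gene *PDGFRB* had 1.91, 0.952, 0.532 and 0.536 TPM in rBMECs, against 14.2, 15.1 and 12.4 TPM in hBMEC-like cells. Fibroblast markers summed to 84.7 to 492 TPM in rBMECs, highest in replicate 1, against 5143 to 5493 TPM in hBMEC-like cells, with 0 of 7 higher and 7 lower. *LUM*, a proteoglycan of connective tissue, had 0.0547, 0, 0.144 and 0.115 TPM in rBMECs, against 856, 691 and 478 TPM in hBMEC-like cells. *DCN* had 0, 0.122, 0 and 0 TPM in rBMECs, against 64, 41.7 and 47.4 TPM in hBMEC-like cells. Astrocyte markers summed to 49.1 to 78.3 TPM in rBMECs, against 552 to 583 TPM in hBMEC-like cells, mostly *GJA1*, with 4 of 5 lower. Neuron markers summed to 3.29 to 21.7 TPM in rBMECs, against 121 to 166 TPM in hBMEC-like cells, with 7 of 8 lower. Microglia and leukocyte markers summed to 4.71 to 7.81 TPM in rBMECs and 3.19 to 5.77 TPM in hBMEC-like cells, with 1 of 3 tested higher and 2 lower and *PTPRC* at 0 counts in all 8 rat libraries. Neuroectoderm markers summed to 208 to 279 TPM in rBMECs, against 253 to 257 TPM in hBMEC-like cells, with 2 of 6 higher and 2 lower (2 and 4 with housekeeping scaling), and *ZIC2* was one of the higher ones. Oligodendrocyte markers summed to 63.3 to 70.3 TPM in rBMECs, against 83.8 to 98.2 TPM in hBMEC-like cells, with 1 of 5 higher and 3 lower. Choroid plexus markers summed to 5.64 to 10.4 TPM in rBMECs, against 18.6 to 31.5 TPM in hBMEC-like cells, with 2 of 8 higher and 4 lower. Of the smooth muscle genes, which summed to 247 to 872 TPM in rBMECs, highest in replicate 1, against 363 to 448 TPM in hBMEC-like cells, 1 of 11 was higher in rBMECs and 5 lower. *TAGLN*, an actin-binding protein that cultured cells of many kinds express, overlapped, with 687, 142, 444 and 180.3 TPM in rBMECs, against 217, 205 and 154 TPM in hBMEC-like cells, a log2 difference of 0.92 ± 0.53 (SE, adjusted p = 0.14). It was called as higher without rBMEC replicate 2 (1.19). The part of such cells in the differences was not tested, and in bulk samples fewer cells of a type and less RNA per cell cannot be told apart.

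**Figure D5:**
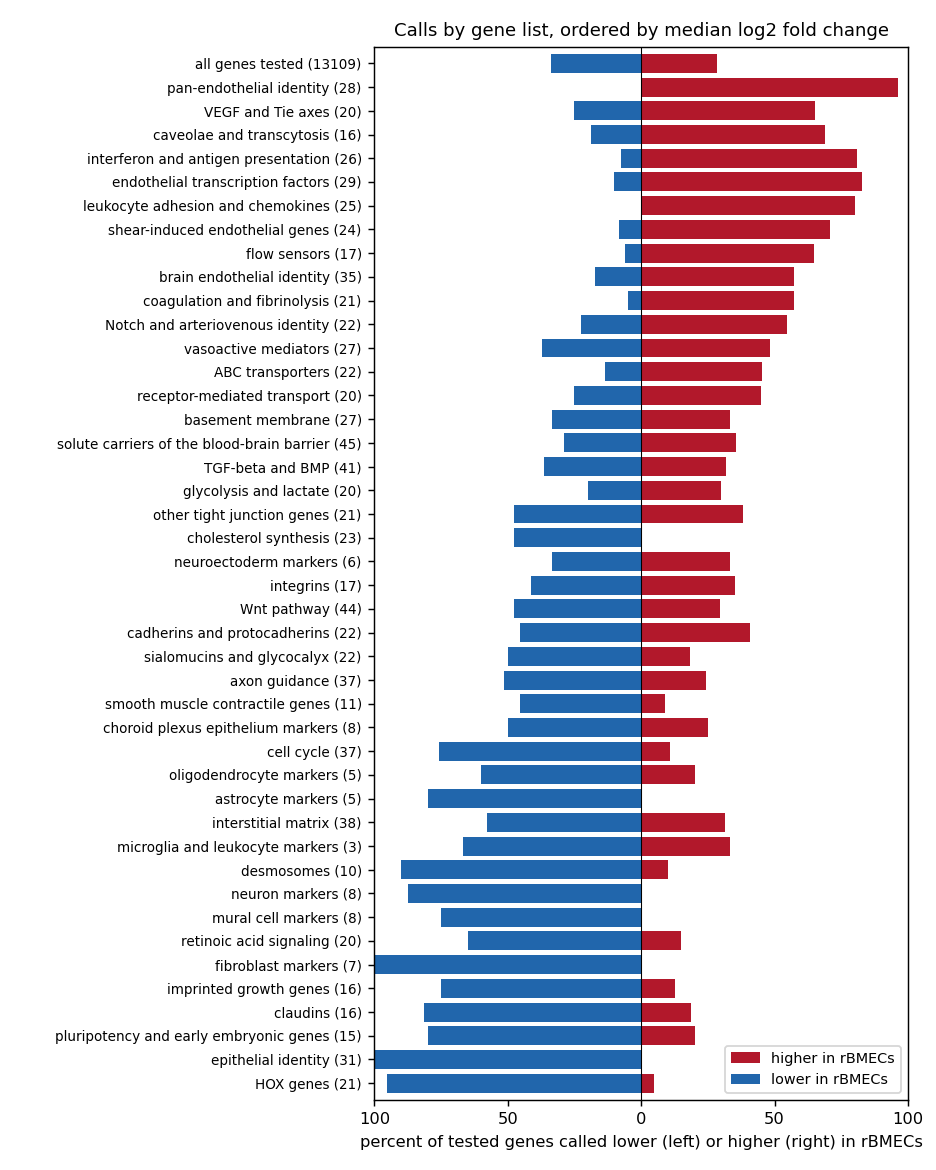
Percent of tested genes of each list that were called higher (red, right) or lower (blue, left) in rBMECs than in hBMEC-like cells, with the number tested in parentheses and lists ordered by median log2 fold change. All genes tested stand at 28.4% higher and 33.7% lower. Pan-endothelial genes were higher in 27 of 28 and epithelial genes lower in 31 of 31.

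By size alone, the 15 genes of at least 50 TPM with the largest differences in favor of rBMECs were *NOTCH4*, *FAM107A*, *CD99*, *EIF4A1*, *MTPN*, *CLIC1*, *CD34*, *IFI27*, *SCARF1*, *PECAM1*, *CLDN5*, *PPP1R18*, *CD48*, *ATF6B* and *ABCF1*. Of these, *CD34*, *PECAM1* and *CLDN5* averaged 2921, 960.2 and 766 TPM in hECs, whereas most of the others were at or near 0 in every human model and fall under the limit on counting given above. *FAM107A*, a gene of actin bundling, had 134, 597, 369.6 and 470.5 TPM in rBMECs and 0 counts in hBMEC-like cells, and hECs and hCECs averaged 4.06 and 1.20 TPM. Among genes that were counted in both models and seen in hECs or hCECs, *SRGN*, a proteoglycan of secretory granules, had 863, 968, 687 and 1133 TPM in rBMECs, against 0.165, 0 and 0 TPM in hBMEC-like cells. The proton-sensing receptor *GPR4* had 383, 471, 342 and 548 TPM in rBMECs, against 0.112, 0.0700 and 0.0392 TPM in hBMEC-like cells. The adhesion receptor *ADGRF5* had 455, 981, 868 and 994 TPM in rBMECs, against 0.175, 0.243 and 0.150 TPM in hBMEC-like cells. Few counts of these genes were found in hBMEC-like cells. *CD93*, a C-type lectin of angiogenic endothelium, had 534, 409, 614 and 459.6 TPM in rBMECs, against 0.0786, 0.157 and 0 TPM in hBMEC-like cells. These 4 genes were at 6.25 to 982 TPM on average in hECs. The 15 largest differences in the other direction were those of *HAPLN1*, *LIN28A*, *HAND1*, *ESRP1*, *COL26A1*, *CLDN6*, *HOXB1*, *KRT18*, *LRRN1*, *CPVL*, *DRAXIN*, *SALL4*, *ELF3*, *CAPN6* and *CACNG4*. *HAND1*, a basic helix-loop-helix factor of extraembryonic and heart mesoderm, had 694, 688 and 608 TPM and was listed at 0 in all 8 rat libraries. *HAPLN1*, a link protein of hyaluronan, had 0 counts in the rBMEC high-shear libraries and 566, 609 and 445 TPM in hBMEC-like cells, so it was at least 35818-fold lower in rBMECs, taking 3 counts over the group as the floor. Its mean was 172 TPM in hECs and 329 TPM in hCECs. *ELF3*, an ETS factor of epithelia, had 0 counts in the rBMEC high-shear libraries and 86.6, 105 and 125 TPM in hBMEC-like cells, with 0.130 and 0.0868 TPM in hECs and hCECs. *MSX2*, a homeobox factor of BMP signaling, had 0.383, 0, 0 and 0 TPM in rBMECs, against 428, 475 and 399 TPM in hBMEC-like cells. The fibrillin gene *FBN2* had 0.0308, 0.0728, 0 and 0 TPM in rBMECs, against 174, 164 and 134 TPM in hBMEC-like cells. The kinase gene *NRK* had 0.0939, 0.111, 0.124 and 0.0124 TPM in rBMECs, against 292, 289.6 and 271 TPM in hBMEC-like cells. All rBMEC libraries were below 1 TPM for these genes. *COL2A1*, the cartilage collagen, was at 0.0925, 0.0218, 0 and 0 TPM in rBMECs, against 116, 114 and 217 TPM in hBMEC-like cells.

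The models were also compared at low shear, which is 0.1 dyne/cm2 in the series' design text, while the methods state a higher value. There 62.3% of 13138 genes were called, and 7583 of the 8013 genes that were called at high shear and tested at low shear were called in the same direction at low shear, with 0 in the opposite one. The interaction of model and shear was called for 5 of 13545 genes (0.0369%), 3 positive and 2 negative, and 1349 had an unadjusted p under 0.05. *KLF4*, a flow-induced factor, averaged 132 TPM at high and 49.6 TPM at low shear in rBMECs, against 14.7 and 14.3 TPM in hBMEC-like cells (interaction of 1.37 ± 0.15, adjusted p = 0.04). *NCOA7*, a nuclear receptor coactivator, averaged 50.8 and 81.7 TPM in rBMECs, against 11 and 8.86 TPM in hBMEC-like cells (interaction of -0.99 ± 0.11, adjusted p = 0.04). *IRS1*, the insulin receptor substrate, averaged 0.184 and 0.498 TPM in rBMECs, against 78 and 64.6 TPM in hBMEC-like cells (interaction of -1.69 ± 0.16, adjusted p = 0.025). *FBLN2*, a basement membrane fibulin, was high in rBMEC replicate 1 alone, with 38.3, 3.14, 4.78 and 3.43 TPM in rBMECs, against 23.7, 26.4 and 27.2 TPM in hBMEC-like cells at high shear (interaction of 1.75 ± 0.16, adjusted p = 0.025). At low shear it averaged 3.98 TPM in rBMECs, against 25 TPM in hBMEC-like cells. Its log2 difference at high shear was -1.05 and not called, and without replicate 1 it was -2.77 and called as lower in rBMECs. Without the cultures of rBMEC replicate 1, the interaction was called for 73 genes in the positive and 68 in the negative direction, and it was called for 0 without those of rBMEC replicate 2 or 3 or of any hBMEC-like replicate, so its count rests on single cultures.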

How the data were processed

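RNA of 26 chip cultures was sequenced as paired-end poly(A) libraries. The authors aligned reads with STAR to hg38 (human) or rn7 (rat) and counted them per gene with featureCounts. In the sample labels the only build given is hg38, also for rat. The deposited values are raw counts per gene and culture, with the gene length of each table. Lines with blank cells (5 rat, 6 human) were left out. Every value column was mapped to a sample by its name.

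Rat and human genes were matched by upper-cased symbol. Counts were tested with edgeR 4.0.16 (quasi-likelihood, R 4.3.3, Benjamini–Hochberg adjustment) with offsets of the log effective library size and the log gene length. Scaling factors (TMM) came from length-scaled counts of all 26 libraries, since the same transcript can differ in length between species. Genes were kept by filterByExpr. A call required an adjusted p under 0.05 and a 2-fold difference, and the interaction with shear an adjusted p under 0.05. TPM were computed over the shared genes. Each SE was derived from the log2 fold change and its F. Floors are 3 counts over a group and cover counting error only. Alternatives were DESeq2 1.42.0, other scalings, no length correction, no filter, similar lengths, replicate blocks and left-out libraries. The test was checked on simulated counts.

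The lists and genes were chosen with earlier results of these data known. Named genes were the 15 largest differences per direction among genes of at least 50 TPM, the 6 highest members of a list, a core list and the interaction calls of at least 10 TPM, and not all of them are printed. *SRGN*, *GPR4*, *ADGRF5*, *CD93*, *MSX2*, *FBN2*, *NRK*, *COL2A1* and *LUM* were taken by size among genes with over 3 counts in both groups, and this was set after values were seen. *CAVIN2*, *DLL4*, *DNM2*, *FCGRT*, *FLT1*, *FOXF2*, *FOXQ1*, *FZD2*, *FZD4*, *FZD7*, *GRB10*, *IL1R1*, *IRF1*, *ITM2A*, *JAM2*, *LAMB1*, *LRP2*, *NOTCH1*, *NR2F2*, *PIEZO1*, *PTPRC*, *RPS18*, *SLC30A1*, *SLC44A2*, *SLCO1C1*, *SLCO2B1* and *VEGFA* fall outside the rule and were chosen after their values were seen. Gene positions and promoter windows are from the RefSeq annotation of GRCh38. Rat coordinates were not analysed here.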

Additional observations from a re-analysis of the deposited data

Results flagged for a closer look

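Among 194 genes looked at in the 4 rBMEC high-shear libraries, 36 had 1 library farther from the others than Dixon's 95% limit on the log2(TPM + 1) scale, where chance gives about 1 in 20 groups. In 8 of these the other 3 libraries were at 0, so any count in the remaining one passes the limit, and they are not to be read against that rate. In all of the other 28 the library that stood apart was replicate 1. The hBMEC-like group of 3 was not looked at in this way. Replicate 1 was lower than the other rBMEC libraries, in TPM, for *ESAM* (241, against 608 to 645), *F11R* (746, against 1297 to 1430.0), *FLI1* (21, against 57.2 to 69.4), *FLT1* (137, against 233 to 248), *FZD4* (81.4, against 143 to 159), *FZD6* (179, against 387 to 429.7), *HES1* (105, against 177 to 182), *NFKBIA* (380.1, against 1114 to 1287), *PECAM1* (1033, against 2273 to 2469.5), *PLAT* (521, against 1629.6 to 1764), *PODXL* (489.8, against 765 to 823), *PPP1R18* (171, against 229 to 233), *S1PR1* (237, against 704 to 794), *SLCO2B1* (28.8, against 166 to 228), *SOX17* (197, against 322 to 336) and *TIE1* (1033, against 2129 to 2361). It was higher than they were for *CDH1* (2.07, against 0.102 to 0.204), *CDKN1A* (667, against 411 to 431), *CLDN4* (1.05, against 0 to 0.0694), *DNMT3B* (6.15, against 2.71 to 2.93), *FBLN2* (38.3, against 3.14 to 4.78), *FN1* (10040.5, against 3748 to 4277), *GRHL2* (1.34, against 0 to 0.0799), *MFSD2A* (8.71, against 3.23 to 3.62), *PKP1* (639.7, against 39.6 to 60.3), *SLC40A1* (425, against 235 to 257), *TFRC* (151, against 55.1 to 60.2) and *VEGFA* (18.7, against 5.38 to 6.63). For *CAPN6* (0.0271 in replicate 1), *CLDN3* (0.0847 in replicate 3), *CLDN7* (0.146 in replicate 4), *DCN* (0.122 in replicate 2), *HOXA5* (0.0340 in replicate 4), *KRT19* (0.633 in replicate 3), *LRRN1* (0.0144 in replicate 2) and *MSX2* (0.383 in replicate 1), 1 rBMEC library had a low level in TPM and the other rBMEC libraries had 0 counts. What set replicate 1 apart was not tested.

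The difference between rBMECs and hBMEC-like cells itself differed between high and low shear, by edgeR's interaction test, for *FBLN2* (1.75 on the log2 scale), *KLF4* (1.37), *IRS1* (-1.69) and *NCOA7* (-0.99). Their adjusted p and their levels are given with the low-shear comparison. All 4 lost the call without the cultures of rBMEC replicate 2 or 3 or of any hBMEC-like replicate, while DESeq2 called all 4.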

How the results depend on the processing

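The counts of called genes between rBMECs and hBMEC-like cells stayed within 1.5 times under all alternatives but housekeeping scaling, under which 2331 genes were higher and 6603 lower. Leaving out single libraries gave 3606 to 3727 higher, 4301 to 4551 lower, 461 to 462 present in rBMECs and near absent in hBMEC-like cells and 525 to 526 the reverse. DESeq2 called 3729 higher and 4378 lower, and it gave no adjusted p for 6 of the genes named here (*CDH1*, *COL1A1*, *CRABP2*, *FBLN2*, *KRT8* and *PKP1*). No gene length correction gave 3539 and 4196, and without it *ID3* (-0.96) was not called. An alternative chosen after seeing the data, which left out genes at 0 in all libraries of a species, gave 381 and 432 genes present in 1 model and near absent in the other. No named gene that was called reversed under any of these alternatives. With housekeeping scaling *SLC2A1*, *SLC40A1*, *MFSD2A*, *CDKN1A*, *CLDN1* (0.28) and *FN1* (0.19) were not called. That scaling called *ABCG2*, *ACKR3*, *CDH2*, *FBLN2*, *GAPDH*, *PIEZO1*, *SLC16A1*, *SMAD7* and *VEGFA* lower in rBMECs (-1.01 to -2.04). Library totals also took the call from *SLC2A1* (0.99) and *FN1* (0.96). *SLC16A1* was called lower with totals (-1.14), DESeq2's size factors (-1.02) and no length correction (-1.04), and *ABCG2* (-1.08) and *CDH2* (-1.04) with totals. Within a model the replicate number pairs the high- and low-shear cultures. Between the models it was not used to pair samples, since rat isolations and human differentiations share no source. Deviations of same-numbered high-shear samples of the models correlated at -0.045 to 0.033. A replicate block in the main comparison gave 3557 higher and 4261 lower. Under the block *SLC16A1* gained a call (-1.07), and no other call of a gene named here changed. The count of interaction calls, 3 positive and 2 negative, was unstable. It was 1 and 1 with no replicate block, 4 and 5 with library totals, 121 and 166 with DESeq2, and from 0 to 73 positive and 0 to 68 negative when the cultures of 1 replicate were left out. For hECs and hCECs against hBMEC-like cells, counts were 2295 to 2536 higher and 2905 to 3590 lower over the alternatives. Depth was similar between the models, and the levels near 0 rest on few counts.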
